A study of Mus musculus with 6 samples.

Results

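Seven-transmembrane receptors expressed by oligodendrocytes and their progenitors were examined in O4+ cells isolated from the brains of WT and Npc1-/- mice at postnatal day 16. The set comprised 7 genes, Gpr17, Gpr37, Gpr62, Adgrg1, Lpar1, S1pr5 and Gprc5b. Members were chosen by gene symbol and all 7 were found among the 55492 genes of the expression table. All 7 passed the filter on low expression, a mean TPM (a length-corrected measure of relative transcript abundance) of at least 0.5 over the 6 samples, which left 15245 genes for testing.

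G-protein-coupled receptors span the membrane, bind a ligand outside the cell and activate heterotrimeric G proteins within it, which in turn set cyclic AMP, calcium and RhoA signaling. In the oligodendrocyte lineage these receptors are known as stage-specific regulators. Adgrg1 (also called GPR56) is an adhesion receptor of progenitors that signals to RhoA and keeps the cells in the cycle. Gpr17 is transiently expressed in committed, premyelinating cells and restrains their maturation. Gpr37, Gpr62 and S1pr5 are known from more mature, myelin-forming cells, with Gpr37 acting as a brake on differentiation and S1pr5 responding to sphingosine 1-phosphate. Lpar1 responds to lysophosphatidic acid and is found in maturing oligodendrocytes, and Gprc5b is an orphan receptor of the retinoic acid-inducible family that is found in several neural cell types.

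Bulk RNA sequencing had been performed on 3 WT and 3 Npc1-/- samples, each from 1 mouse. Npc1-/- mice were homozygous for the nih allele of Npc1, which encodes a lysosomal cholesterol transport protein, and WT mice were their littermates. Both genotypes came from crosses of heterozygous BALB/cJ and C57BL6/J parents, and both were untreated. The nih allele is carried in the germline, so all cells of an Npc1-/- mouse were mutant and not oligodendrocytes alone. Cells were purified from whole brain with magnetic microbeads against O4, a surface antigen of late progenitors and immature oligodendrocytes. In bulk samples of this kind, a change in the share of a cell type and a change in RNA per cell cannot be told apart.

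Levels are given as scaled TPM, that is, the deposited TPM divided by a median-of-ratios size factor of the sample, which ranged from 0.727 to 1.30 and was lowest in Npc1-/- replicates 2 and 3. Sequencing depth, estimated from the steps in the deposited FPKM values, ranged from 40500000 to 50000000 fragments. Npc1 itself was at 41.1, 45.5 and 43.9 scaled TPM in the WT samples and 3.72, 5.17 and 4.35 in the Npc1-/- samples, so every library matched its genotype label. The lineage was present in every sample, since the summed level of Sox10, Olig1 and Olig2, transcription factors of the whole oligodendrocyte lineage, was between 767 and 938 in WT and between 809 and 908 in Npc1-/- samples. RNA of other cells was present too. The summed level of 8 microglial markers lay between 215 and 333 in WT and between 102 and 190.5 in Npc1-/- samples, and that of 8 vascular markers between 661 and 960 and between 444 and 526. Neuronal markers summed to between 88.7 and 126 in WT and between 126 and 156 in Npc1-/- samples, and astrocyte markers to between 703 and 770 and between 467 and 891. None of these markers was at 0 in any sample.

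All 7 receptors were well expressed in WT O4+ cells. Gpr17 was highest, at 441 ± 80.1 scaled TPM (mean ± SD, n = 3), followed by Lpar1 at 269 ± 57.5, S1pr5 at 67.9 ± 7.61, Gprc5b at 49.9 ± 2.94, Adgrg1 at 39.3 ± 7.17, Gpr37 at 35.1 ± 1.99 and Gpr62 at 23.1 ± 2.83. TPM is corrected for transcript length, so these levels can be ranked between genes. Adgrg1 and Gpr37 were the only neighbors in this order whose WT ranges overlapped. Over all 6 samples, the mean TPM of Gpr17 exceeded that of 98.8% of tested genes and the mean TPM of Gpr62, the lowest of the receptors, exceeded that of 81.7%. In Npc1-/- samples the first 4 places were unchanged, but Gpr37 and Gpr62 both stood above Adgrg1, which came last at 30.7 ± 3.56. Gpr62 was below Adgrg1 in each WT sample and above it in each Npc1-/- sample. Gpr17 and Lpar1 were then the only neighbors that overlapped, and in Npc1-/- replicate 3 Lpar1 was the higher of the pair.

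**Figure D1:**
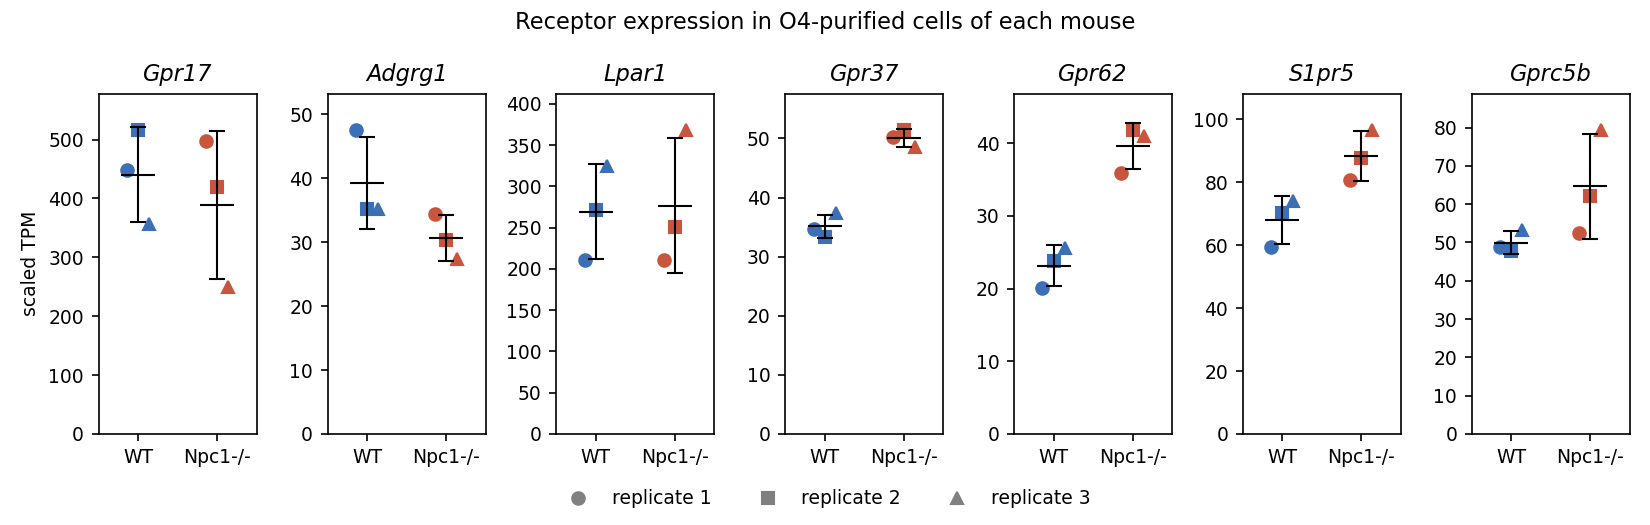
Scaled TPM (vertical axes, linear and starting at 0) of the 7 receptors in each of 3 WT (blue) and 3 Npc1-/- (red) samples, with the mean and SD of each genotype in black and the replicate number given by the symbol. Gpr37, Gpr62 and S1pr5 were higher in every Npc1-/- sample than in any WT sample, Adgrg1 was lower, and the genotypes overlapped for Gpr17, Lpar1 and Gprc5b.

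To ask whether expression of the receptors differed between genotypes, a linear model was fitted to log2 values over all tested genes. Gpr37 and Gpr62 rose in Npc1-/- O4+ cells, and no receptor fell past the threshold. Thus 2 of the 7 receptors passed (limma adjusted p below 0.05 and a log2 fold change of 0.1 or more in either direction), compared with 0.813% of all genes tested, or 0.4% counting only higher genes. The genotypes did not overlap for 4 of the 7, with 3 receptors above and 1 below, against 27.5% of all genes in either direction. The median log2 fold change was 0.35 over the receptors and 0.01 over all genes. With 3 samples against 3, an exact two-sided permutation test over samples cannot give a p-value below 0.1, which was reached by each of the 4 receptors without overlap.

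Gpr62, an orphan receptor of myelinating cells, was at 20.0, 23.8 and 25.5 scaled TPM in WT samples and at 36.0, 41.8 and 41.0 in Npc1-/- samples. The lowest Npc1-/- sample lay well above the highest WT sample. The log2 fold change was 0.77 (SE 0.12, 95% interval 0.49 to 1.04), a 1.70-fold rise, with a limma adjusted p of 0.0442. The call was lost without any single sample other than Npc1-/- replicate 3, with adjusted p from 0.0647 to 0.190, whereas the log2 fold change stayed between 0.67 and 0.84. Gpr62 lies on chromosome 9 (GRCm38, chr9:106463962-106465938, minus strand; ENSMUSG00000091735). It shares 51 exonic bases, 2.58% of its own, with Pcbp4 on the opposite strand. Pcbp4 was the more abundant gene, with a mean of 143 TPM and a log2 fold change of 0.25 (adjusted p = 0.191), and the counting is not described as strand-specific. The part of these shared bases in the Gpr62 value was not tested.

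Gpr37, which encodes a receptor proposed to bind prosaposin-derived peptides, was at 34.7, 33.4 and 37.3 scaled TPM in WT samples and at 50.3, 51.4 and 48.5 in Npc1-/- samples. Samples of a genotype lay close together and the genotypes were clearly apart. The log2 fold change was 0.51 (SE 0.08, 95% interval 0.31 to 0.70), a 1.42-fold rise, with a limma adjusted p of 0.0493, just inside the threshold. As for Gpr62, the call held without Npc1-/- replicate 3 (adjusted p = 0.0430) and was lost without any other single sample, at 0.0702 to 0.197, with log2 fold changes of 0.47 to 0.55. The gene lies at chr6:25665878-25690729 on the minus strand (ENSMUSG00000039904) and overlaps no other annotated gene.

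S1pr5, the sphingosine 1-phosphate receptor of mature oligodendrocytes, was at 59.4, 70.4 and 74.1 scaled TPM in WT samples and at 80.6, 87.8 and 96.6 in Npc1-/- samples. Every Npc1-/- sample was again above every WT sample. The log2 fold change of 0.38 (SE 0.12, 95% interval 0.11 to 0.65) did not pass the adjustment over all genes (limma adjusted p = 0.117). S1pr5 is also known from natural killer cells. None of 6 natural killer cell genes passed the filter, 5 were at 0 in at least 1 sample, and the highest value of any was 0.358 scaled TPM. The part of these or other cells in the S1pr5 value was not tested. S1pr5 lies at chr9:21242912-21248443 on the minus strand (ENSMUSG00000045087) and shares 51 exonic bases with Gm48303, which was barely expressed, on the other strand.

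Since Gpr62 and S1pr5 each lay above the WT range in every Npc1-/- sample, the sequence before their start sites is shown. The 250 bases upstream of the RefSeq start site (GRCm38.p6, minus strand, 5′ to 3′) are printed in lower case, with matches to motifs of lineage transcription factors in capitals. The motifs searched on both strands were CTGGCAC and CTGGTAC, bound by the myelin regulatory factor MYRF; ACAAAG and ACAATG, of SOX factors; and CAGCTG, an E-box of the OLIG type.
Gpr62, chr9:106465986-106466235: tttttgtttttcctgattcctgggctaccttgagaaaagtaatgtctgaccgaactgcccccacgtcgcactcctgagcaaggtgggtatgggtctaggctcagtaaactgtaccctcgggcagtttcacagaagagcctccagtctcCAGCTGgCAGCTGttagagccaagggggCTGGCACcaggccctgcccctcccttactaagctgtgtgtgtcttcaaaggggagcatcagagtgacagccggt
S1pr5, chr9:21248444-21248693: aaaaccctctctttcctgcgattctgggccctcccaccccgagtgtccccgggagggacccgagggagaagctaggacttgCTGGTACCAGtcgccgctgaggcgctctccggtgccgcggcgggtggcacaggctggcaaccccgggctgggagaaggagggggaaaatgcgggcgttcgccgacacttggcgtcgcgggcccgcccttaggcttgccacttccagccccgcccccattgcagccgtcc

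The Gpr62 window held CTGGCAC at 74 to 68 bases before the start and CAGCTG at 102 to 97 and at 95 to 90 bases. The S1pr5 window held CTGGTAC once on each strand, as overlapping matches from 169 to 160 bases before the start. The RefSeq start of S1pr5 is also the start of the GENCODE gene, whereas that of Gpr62 lies 47 bases upstream of the GENCODE gene, and the bases after it were not found in a GENCODE transcript. Distances for Gpr62 therefore hold for the RefSeq start only. The RefSeq start of Gpr37 lies 749 bases inside the GENCODE gene, so its window, which held no match, lies within the gene in that annotation and is not shown. Promoter windows were available for 6 of the 7 receptors, all but Gpr17, and some had several start sites. At least 1 window of 4 of these 6 held a MYRF word, including Lpar1 and Adgrg1, which were not higher in Npc1-/- samples past the threshold. The windows of Lpar1 and Adgrg1 start inside the GENCODE genes as well. Over 32817 promoter windows of the same length, 5.92% held a MYRF word, 25.2% a SOX word and 13.0% the E-box. These shares are per window, whereas the 4 of 6 counts receptors, of which Lpar1 had 3 windows and Adgrg1 had 2. The 2 measures are therefore not directly comparable. A match is a description of the sequence only.

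Lpar1 and Gprc5b, also found in maturing cells, did not separate the genotypes. Lpar1 was at 210.4, 272 and 325 scaled TPM in WT samples and at 211, 251 and 369 in Npc1-/- samples. The spread within each genotype was far wider than the difference between them, at a log2 fold change of 0.02 (SE 0.24, 95% interval -0.54 to 0.58, limma adjusted p = 0.966). Without Npc1-/- replicate 3, the sample with the highest Lpar1, the value was -0.20. Lpar1 lies at chr4:58435255-58553898 on the minus strand (ENSMUSG00000038668).

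Gprc5b was at 48.9, 47.7 and 53.3 scaled TPM in WT samples and at 52.4, 62.2 and 79.4 in Npc1-/- samples. Of the Npc1-/- samples, replicate 1 fell within the WT range and the others lay above it. The log2 fold change was 0.35 (SE 0.15, 95% interval -0.01 to 0.71, limma adjusted p = 0.231), and it was 0.19 without Npc1-/- replicate 3. Gprc5b (chr7:118972047-118995211, minus strand; ENSMUSG00000008734) shares 606 exonic bases, 13.1% of its own, with Iqck on the other strand, which was expressed at a mean of only 1.43 TPM.

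Gpr17 and Adgrg1, receptors of earlier stages, were the pair with negative fold changes, neither past the threshold. Gpr17 was at 449, 516 and 357 scaled TPM in WT samples and at 498, 419 and 250.2 in Npc1-/- samples. Replicate 3 was the lowest sample of each genotype, and the genotypes overlapped. The log2 fold change was -0.22 (SE 0.27, 95% interval -0.85 to 0.40, limma adjusted p = 0.683). It turned to 0.07 without Npc1-/- replicate 3, so a direction cannot be given for Gpr17. The gene lies on chromosome 18 (chr18:31942997-31949636, minus strand; ENSMUSG00000052229), 19.7 Mb from Npc1, and shares 188 exonic bases with Lims2 on the other strand, whose log2 fold change was 0.03.

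Adgrg1 was at 47.6, 35.1 and 35.2 scaled TPM in WT samples and at 34.4, 30.3 and 27.3 in Npc1-/- samples. Every Npc1-/- sample was below every WT sample, but the gap between the nearest samples was small and WT replicate 1 stood apart. The log2 fold change was -0.34 (SE 0.15, 95% interval -0.69 to 0.00, limma adjusted p = 0.229) and was -0.20 without WT replicate 1. Adgrg1 is known from microglia as well as from progenitors. Microglial markers had lower values in Npc1-/- samples, with all 8 fold changes negative and a median log2 fold change of -0.89. Of these, 1 (Tmem119, -1.44) was past the threshold. In WT samples the summed microglial level was 333, 215 and 253, highest in replicate 1 as for Adgrg1. In Npc1-/- samples it rose over replicates 1 to 3, at 102, 142 and 190.5, whereas Adgrg1 fell in that order. The part of microglia in the Adgrg1 value was not tested. Adgrg1 lies at chr8:94974751-95014217 on the plus strand (ENSMUSG00000031785).

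The size factors matter for these values, because the TPM as deposited were lower across most genes in Npc1-/- samples, with a median log2 fold change over all genes of -0.33. On that scale Gpr62 was at 0.40, or 0.73 above the median of all genes, and Gpr37 was at 0.14, or 0.46 above it. S1pr5 was at 0.01 and Gprc5b at -0.02, which were 0.33 and 0.31 above the median gene. Adgrg1, at -0.71, differed from it by -0.38, Gpr17, at -0.59, differed from it by -0.27, and Lpar1, at -0.35, by -0.02. The order of change from Gpr62 down to Adgrg1 was the same on both scales. A size factor shifts the log2 values of all genes of a sample by nearly the same amount. The kept order follows from this and is no separate evidence. No receptor passed the test on the deposited TPM.

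**Figure D2:**
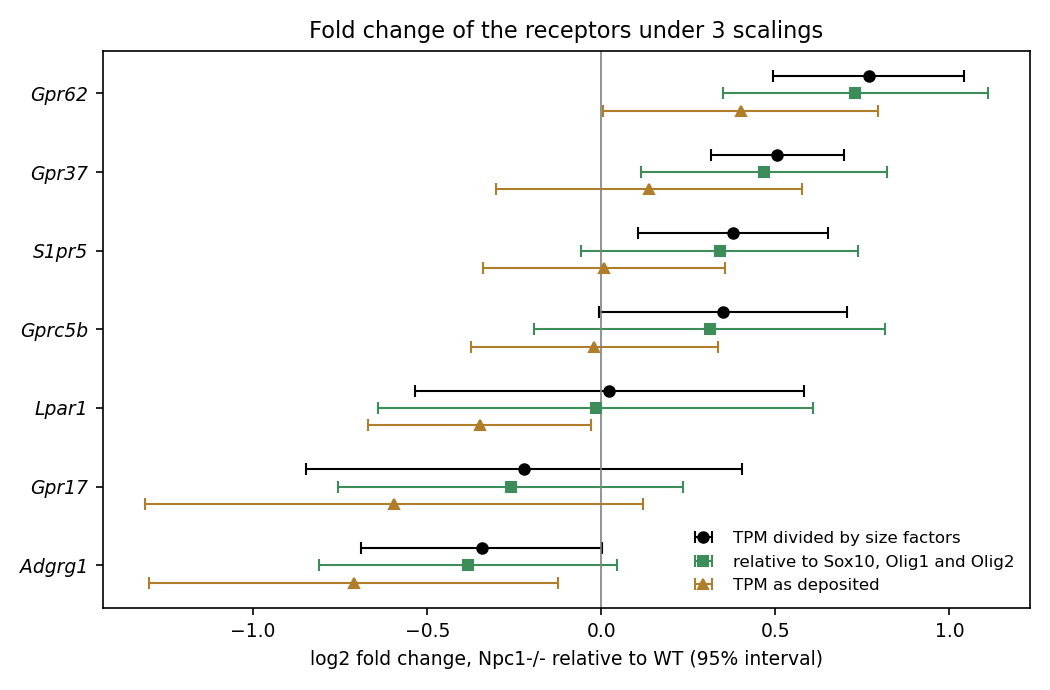
Log2 fold change of each receptor in Npc1-/- relative to WT samples (horizontal axis, with 95% interval from limma) for TPM divided by size factors (black circles), for values relative to Sox10, Olig1 and Olig2 (green squares) and for TPM as deposited (brown triangles). Gpr62 was highest under all 3 scalings, at 0.77, 0.73 and 0.40, and the deposited TPM lay further to the left for every receptor. Each scaling shifts all genes of a sample nearly alike, so the order of the receptors could hardly differ between them.

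To ask whether the differences held relative to the lineage as a whole, each receptor was set against the mean log2 level of Sox10, Olig1 and Olig2 within the same sample. These 3 factors differed little between genotypes, with log2 fold changes of 0.02 to 0.06. Gpr62 stood at -3.41, -3.46 and -3.14 log2 units from their mean in WT samples and at -2.85, -2.58 and -2.38 in Npc1-/- samples. The genotypes remained apart for Gpr62, with a difference of 0.73, for Gpr37, with 0.47, and for Adgrg1, with -0.38. For Adgrg1 the nearest samples were almost equal, WT replicate 2 at -2.90 and Npc1-/- replicate 1 at -2.92, and WT replicate 1 stood apart at -2.18. For S1pr5 the genotypes overlapped on this scale, with a difference of 0.34, as did Gprc5b at 0.31, Gpr17 at -0.26 and Lpar1 at -0.02. With the lineage factors as the scale, limma adjusted p-values were 0.182 for Gpr62, 0.251 for Gpr37 and 0.430 for Adgrg1.

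The balance between the premyelinating receptor Gpr17 and the later receptors was compared within samples, as a description without a test. The log2 level of Gpr17 exceeded that of Gpr62 by 4.45, 4.41 and 3.78 in WT samples and by 3.77, 3.31 and 2.59 in Npc1-/- samples. The genotypes did not overlap, although WT replicate 3 and Npc1-/- replicate 1 were almost equal, and the mean difference was -0.99. Against Gpr37 the mean difference was -0.73 and against S1pr5 it was -0.60, with overlap between genotypes in both. Replicate 3 had the smallest excess of Gpr17 in each genotype.

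**Figure D3:**
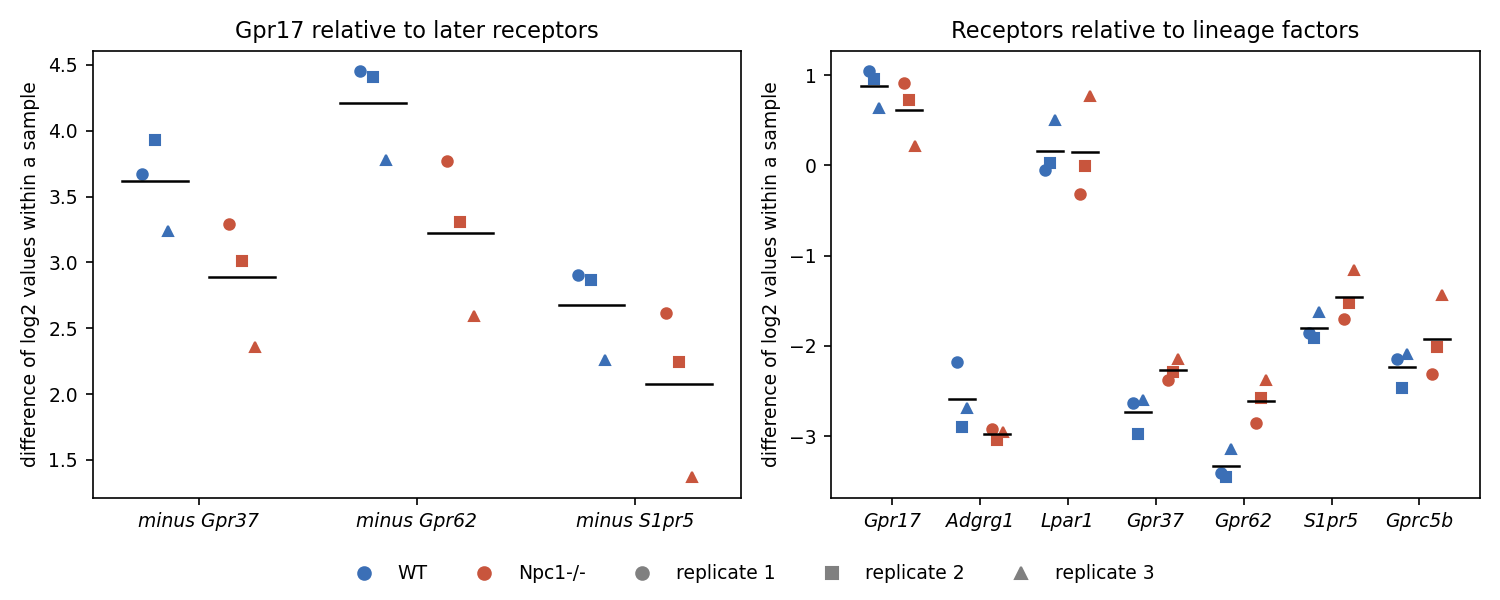
Differences of log2 values within each sample for WT (blue) and Npc1-/- (red), with the replicate given by the symbol and the mean of a genotype by a black bar. Gpr17 minus Gpr37, Gpr62 or S1pr5 is on the left, and each receptor minus the mean of Sox10, Olig1 and Olig2 is on the right. The mean of Gpr17 minus Gpr62 was 4.21 in WT and 3.22 in Npc1-/- samples, and Gpr37 and Gpr62 stood higher relative to the lineage factors in all Npc1-/- samples.

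The later receptors were also set against myelin genes of mature oligodendrocytes. Of 8 such markers, 7 had a positive fold change and none passed the test. Their median log2 fold change was 0.34, but -0.03 under quantile normalization. Mag, the only marker of the 8 whose genotypes did not overlap, had a log2 fold change of 0.42 (limma adjusted p = 0.130). Relative to Mag, Gpr37 differed by 0.09, Gpr62 by 0.35 and S1pr5 by -0.04 between genotypes, all with overlap. The part of a shift in mature cells in the rise of Gpr37 and Gpr62 was not tested. Immature oligodendrocyte markers had a median log2 fold change of -0.12 and progenitor markers one of -0.01, with none of 8 and none of 4 past the threshold.

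Among the nearest family relatives of the receptors, 1 gene fell and none rose. Of 22 relatives, 13 passed the filter, and 1 of these 13 was called, where 0.813% of all genes were. A negative fold change was found for 12 of the 13, against 7465 of all 15245 genes, and the median was -0.26. The relatives and the 7 receptors were not tested against each other. S1pr1, the sphingosine 1-phosphate receptor best known from endothelium and astrocytes, was the 1 relative that passed. It was at 70.9, 67.5 and 61.9 scaled TPM in WT samples and at 29.2, 36.2 and 41.5 in Npc1-/- samples, a log2 fold change of -0.91 (SE 0.14, limma adjusted p = 0.0440). The call for S1pr1 held without Npc1-/- replicate 3 and was lost without any other single sample, at 0.0599 to 0.190. Within the sphingosine 1-phosphate family, S1pr5 thus had a positive fold change and S1pr1 a negative one. In WT samples S1pr1 and S1pr5 were at similar levels, whereas in each Npc1-/- sample S1pr5 was well above S1pr1. Fold changes of the vascular markers were negative for 8 of 8 (median -0.81), with 7 lower without overlap, where 14.2% of all genes were, and none called. Of the astrocyte markers 7 of 8 were negative (median -0.58), none called, and the exception was Gfap at 1.01, with every Npc1-/- sample above every WT sample. The part of these cells in the S1pr1 value was not tested. Gpr37l1, the close relative of Gpr37 and the most abundant of these receptors, had a log2 fold change of -0.24 (adjusted p = 0.431) with overlap.

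Genes that supply or remove receptor ligands showed no call. Of 18 listed, 17 were tested, and the median log2 fold change was -0.32. Enpp2, which encodes autotaxin, the enzyme that makes the Lpar1 ligand lysophosphatidic acid, was the most abundant. It was at 1087, 839 and 808 scaled TPM in WT samples and at 956, 651 and 700.3 in Npc1-/- samples, with overlap (log2 fold change -0.25, limma adjusted p = 0.497). Psap, which encodes prosaposin, the lysosomal protein whose peptides were proposed as Gpr37 ligands, was between 302 and 353 in WT and between 314 and 334 in Npc1-/- samples. The genotypes overlapped, with a 95% interval of the log2 fold change from -0.24 to 0.23.

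Downstream of the receptors, none of 25 tested G protein subunits (of 27 listed) passed, with a median log2 fold change of 0.04. The most abundant were Gnas, the stimulatory alpha subunit, at -0.01 (95% interval -0.26 to 0.24) and Gnb2, a beta subunit, at -0.16. The largest change of the list, named here after its values were seen, was that of the gamma subunit gene Gng13, at 67.6, 60.3 and 87.2 scaled TPM in WT samples and 132, 168 and 237 in Npc1-/- samples. The genotypes did not overlap, and the log2 fold change of 1.29 (SE 0.23) just missed the threshold (limma adjusted p = 0.0528). Of 31 genes for cyclic AMP, RhoA and phospholipase C effectors, 30 were tested and none was called, although the median was -0.26. The genotypes did not overlap for 15 of these 30 effectors, 14 of them lower in Npc1-/- samples, compared with 14.2% of all genes lower without overlap. Rhoa, the small GTPase downstream of Adgrg1 and Lpar1, was at -0.05 (95% interval -0.28 to 0.18) and Prkar1a, a regulatory subunit of protein kinase A, at -0.02. Of 25 kinases, arrestins and regulators that end receptor signaling, 24 were tested and none was called, with a median of -0.13. Rgs5, the most abundant of them, is a pericyte gene and is also counted among the vascular markers. It was at -0.82 (adjusted p = 0.0621), and Rgs3 was at 0.05. Another 28 receptors studied in this lineage, of which 23 were tested, gave no call either and a median of -0.23, led in abundance by Gabbr1 at 0.27 and Adgrb1 at -0.16.

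**Figure D4:**
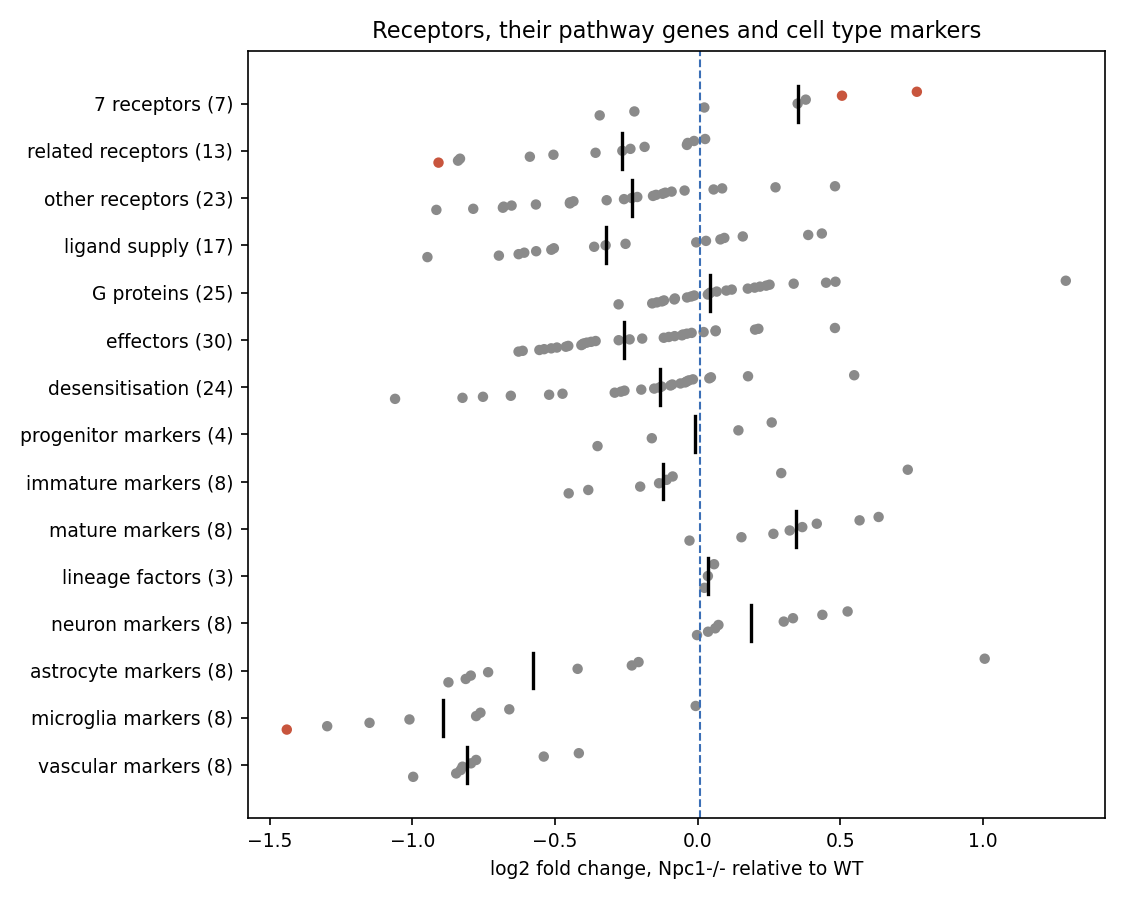
Log2 fold change in Npc1-/- relative to WT samples (horizontal axis) of each tested gene of the receptor set, its pathway lists and the cell type marker lists, with the number of genes tested in brackets. Red points passed the test, gray points did not, black bars are list medians and the dashed blue line is the median of all genes tested (0.01). The receptors had a median of 0.35 and microglial markers one of -0.89.

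For each receptor, the genes with the most similar profile over the 6 samples were found among 9143 genes with a mean of at least 5 TPM, by the root mean square (RMS) difference of centered log2 values. The closest genes to Gpr62 were the small nucleolar RNA host gene Snhg6 (RMS difference 0.0393) and Fabp5, a fatty acid-binding protein gene (0.0532), where the typical gene was at 0.413. Both were called higher, with log2 fold changes of 0.78 (limma adjusted p = 0.0443) and 0.84 (0.0364). As they were picked for a profile like that of Gpr62, these calls follow from the choice and are no further evidence. Gpr37 was closest to Cln8 (0.0274), a gene of an endoplasmic reticulum protein mutated in neuronal ceroid lipofuscinosis, and to Ntmt1 (0.0387). S1pr5 was closest to Fah (0.0194) and Glrx5 (0.0209), and Gprc5b to Cdc37 (0.0337) and Rnf149 (0.0349).

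The closest to Gpr17 were Ccdc130 (0.0683) and Tubb2b (0.0703), a beta-tubulin gene of immature neural cells, both further off than for any other receptor. Adgrg1 was closest to Fjx1 (0.0335) and Hspa2 (0.0544), and Lpar1 to Gid4 (0.0462) and Carhsp1 (0.0485). No gene was closest to more than 1 receptor. Similarity over 6 samples of 2 genotypes is a description of these libraries, in which all genes of a sample share its depth and size factor.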

How the data were processed

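RNA from O4+ cells of 3 WT and 3 Npc1-/- mice was sequenced by the authors as poly(A) libraries with paired-end reads. The submitters' processing notes name cutadapt 2.3, FastQC 0.11.8, STAR 2.7.8a, RSEM 1.3.3 and MultiQC 1.7 with GRCm38 (mm10). Which tool made the tables is not given in the sources used here, the tools named in the study's methods being partly different. The authors deposited TPM and FPKM per gene and sample. TPM values sum to the same total in each sample, so very abundant myelin transcripts (Mbp alone took 18.8 to 26.1% of the TPM) lower the TPM of all other genes, and whole counts were not analysed here.

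TPM were divided by median-of-ratios size factors from 18690 genes, and log2(scaled TPM + 0.5) was fitted in limma 3.58.1 (R 4.3.3; lmFit, eBayes with trend, two-sided) for 15245 genes with a mean of at least 0.5 TPM, with Benjamini-Hochberg adjustment over all of them. Fold changes are on that scale, which understates changes of low genes. Levels are mean ± SD. Depth was estimated from the steps of low FPKM values, of which 79.6 to 83.8% fell within 0.15 of a whole fragment at the estimated depth, where 30% would by chance. The number of mice limits the precision. The fit was tested on simulated data in which 200 genes were changed by 1.5 log2 units. It recovered 175 of them and called 11 unchanged genes. Smaller changes, such as those of the receptors, were not simulated. Gene positions come from GENCODE M21 and promoter sequences from RefSeq.

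The 7 receptors and all gene lists were chosen with earlier results of these data known, so no test over a list was made. Besides the receptors and Npc1, the genes named were, of each pathway list, those called (at most 6) and the 2 with the highest mean TPM, of marker lists their summed level and genes at 0, and for each receptor the 2 genes of most similar profile. Mag, Gfap, Tmem119, Gng13 and the receptors in the closing section were named after their values were seen, and neighbors of a receptor were named for their shared exonic bases. Alternatives covered scaling, FPKM, pseudocount, filter, variance estimation, the replicate block and each sample left out.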

Additional observations from a re-analysis of the deposited data

How the results depend on the processing

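Directions of Gpr37, Gpr62, S1pr5 and Adgrg1 held in all 17 alternatives, but many of these could not turn a direction. The filters, the variance estimation and the replicate block leave the log2 fold changes as they were. FPKM and the other pseudocounts gave nearly the same values. Gpr37 was called in 6 alternatives, Gpr62 in 8, and S1pr5 and Adgrg1 in 1 each. The number of receptors called was 0 with TPM as deposited, relative to Sox10, Olig1 and Olig2, without the filter on low values and without the variance trend. It was 1 under quantile normalization (Gpr37 adjusted p = 0.0547) and with robust estimation (0.0508), where Gpr62 kept its call. Lpar1 turned to -0.35 with TPM as deposited, -0.22 under quantile normalization, -0.016 relative to the lineage factors, -0.14 without WT replicate 1 and -0.20 without Npc1-/- replicate 3 (0.20 at the highest, without Npc1-/- replicate 1). Gprc5b turned to -0.020 with TPM as deposited, and Gpr17 to 0.067 without Npc1-/- replicate 3, from a lowest value of -0.43 without Npc1-/- replicate 1.

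Against 124 genes called (61 higher, 63 lower, or 49.2% higher), TPM as deposited gave 924 (870 lower, 5.84% higher), quantile normalization 227 (94 higher, 133 lower), the lineage factors as scale 11 (8 higher, 3 lower), no filter 21 (14 and 7), a mean of at least 5 TPM 447 (175 and 272) and no variance trend 42 (26 and 16). Leaving out single samples gave 5 to 488 genes, 4 to 111 higher and 1 to 377 lower, and 0 to 2 receptors. For the lists this gave 0 to 2 calls for ligand supply, related receptors and other receptors, 0 to 1 for G proteins, and 0 to 3 for effectors and for desensitisation. With TPM as deposited, calls were 4 for ligand supply, 3 for related receptors, 3 for other receptors, 2 for G proteins, 6 for effectors and 3 for desensitisation. Quantile normalization called 1 G protein. The lineage factors, no filter and no trend each left 0 related receptors. At a mean of at least 5 TPM there were 2 calls each for ligand supply, other receptors and desensitisation, and 1 for G proteins. The counts of 0 calls in the limma fit stand beside 22.2% of all genes at an unadjusted p under 0.05. Apart from the filters, which change the genes adjusted over, and the samples left out, the cause of these shifts was not tested.

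The labels number the samples of each genotype from 1 to 3 without saying that a number is shared. For that reason alone the numbers were not taken as pairs. Deviations from the genotype means correlated at 0.414, 0.0602 and 0.326 for equal numbers. For unequal numbers the correlations ran from -0.391 to 0.0548, so every sample correlated best with its own number. Whether equal numbers mark pairs was not tested. The replicate block gave 2011 genes (1143 higher, 868 lower), with 4 receptors called, since S1pr5 (adjusted p = 0.0260) and Adgrg1 (0.0458) were added, and 5 calls for ligand supply, 2 for related receptors, 6 for other receptors, 2 for G proteins, 7 for effectors and 4 for desensitisation.

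With 3 samples a genotype, the 95% interval of Gpr17 runs from -0.85 to 0.40 and that of Lpar1 from -0.54 to 0.58, so the data leave both a fall and a rise possible for each. Of the 3 receptors with a single annotated transcript, for which fragments can be estimated, Gpr62 had the fewest, at 1232 in its lowest sample.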

Other observations

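A wider view of the receptor class was taken after the values were seen, from genes whose deposited description names a G protein-coupled receptor. Of 113 such genes 56 were tested, and Gpr37 and Gpr62 were the 2 that passed, where 0.813% of all genes did. The 56 include Gpr17, Gpr37, Gpr62, Adgrg1 and Gprc5b of the receptor set, so these 2 calls are those already given. The median log2 fold change over the 56 was -0.15, with 21 positive and 35 negative, against 0.01 over all genes. The genotypes did not overlap for 10 that were higher and 14 that were lower in Npc1-/- samples, where 13.3% and 14.2% of all genes did so. Those with the smallest adjusted p beyond the 2 that passed were Gpr4, at a log2 fold change of -0.74 (limma adjusted p = 0.0507), Adgra2 at -0.76 (0.0522) and Adgrl4 at -0.86 (0.0616), and for the positive fold changes, Gpr19 at 0.61 (0.0733). Vascular and microglial markers were also lower in Npc1-/- samples, and the part of other cells in these values was not tested.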
